A study of Mus musculus with 32 samples.

Results

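The open chromatin of 8 interferon regulatory factor genes (Irf1, Irf2, Irf3, Irf4, Irf5, Irf7, Irf8 and Irf9) was followed by ATAC-seq, in which a transposase cuts open DNA, in haematopoietic stem and progenitor cells (HSPCs) of mouse bone marrow. A deposited peak belonged to a member when the nearest protein-coding gene model of build GRCm38, within 50 kb, was that gene. Of 1054860 peaks in 16 lists, 879 met this rule, 17 to 80 per list. Merged over the full lists they formed 101 regions. The link rests on position alone, so the gene that a region regulates is not known from it.

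Interferon regulatory factors are transcription factors that share a DNA-binding domain and recognise GAAA repeats, the core of the interferon-stimulated response element (ISRE). Irf3 and Irf7 are latent in the cytoplasm and, once phosphorylated downstream of pattern receptors such as Toll-like receptor 4, switch on type I interferon genes. Irf9 joins STAT proteins to carry the interferon receptor signal to the nucleus. Irf1 is itself induced by interferon-gamma, and Irf2, which binds the same sites, is known as its antagonist and as a restraint on interferon signalling in stem cells. Irf4 and Irf8 bind composite sites with PU.1 or AP-1 partners, Irf8 being a determinant of monocyte and dendritic cell fate, and Irf5 directs inflammatory cytokine genes in myeloid cells.

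The HSPCs were wild-type donor cells (C57BL/6J, CD45.1+/2+, Lin- cKit+ Sca1+) sorted from marrow of lethally irradiated C57BL/6J recipients (CD45.2) that carried a mixed graft. In the AF9-experienced groups ("AF9+/+" mice), 800000 wild-type marrow cells were transplanted with 200000 marrow cells homozygous for hMLL-AF9 and rtTA (iMLL-AF9, CD45.1), in which doxycycline induces a leukaemia fusion protein. In the naive groups ("AF9-/-" mice), the 200000 companion cells were hMLL-AF9-null and carried homozygous rtTA alone. From 6 to 8 weeks after transplantation, the leukaemia phase of 5 weeks on doxycycline was followed by 4 weeks of withdrawal. Mice then received PBS or LPS, a bacterial lipopolysaccharide sensed by Toll-like receptor 4, and were killed 24 hours later. The 32 labelled samples are 2 technical libraries of 16 biological replicates, and each replicate had 1 peak list. After PBS there were 4 naive and 4 AF9-experienced replicates, and after LPS 3 naive and 5 AF9-experienced ones. The sorted cells never carried the fusion gene, all recipients were irradiated, and the labels do not say whether a replicate was 1 mouse or a pool.

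Values are percentile ranks. By the authors' -log10 p, the 19100 strongest peaks on autosomes were kept from every list, as many as the shortest list had. The value of a region is the rank of its strongest peak in that library, with 100 the strongest and 0 no peak among the 19100. A region was tested with limma when at least 3 lists held a peak there. It was called when its p, adjusted by Benjamini-Hochberg over all 23554 tested regions, was under 0.05. In these equal-length lists the members held 28 regions, of which 20 were tested. A second set of values used the 13 longer libraries at 59609 peaks each ("long lists"), with 72 member regions, 56 of them tested among 70017. It leaves out the 3 shortest lists, which are replicate 1 of both PBS groups and replicate 3 of naive LPS (19448 to 39464 peaks, median fold enrichment 5.07 to 6.58 in the equal-length lists).

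Library contrast bears on every LPS comparison. In the equal-length lists the other 13 libraries had a median fold enrichment of 13.9 to 19.4 after PBS and 9.16 to 13.6 after LPS, so the authors' peak heights differed with the treatment. In the long lists these medians were 8.34 to 13.3 after PBS and 4.65 to 7.53 after LPS. They did not overlap, and there treatment and library contrast cannot be told apart. The equal-length medians of these 13 libraries did not overlap either. Only the 3 shortest lists, at 5.07 to 6.58, lay outside that order, so contrast bears on the equal-length calls too. Peaks on the Y chromosome, a check on mixed libraries, numbered 0 to 3 per list. Of 12 HSPC markers, 9 had a peak at a gene end in at least 3 lists, and 1, Ly6a, which encodes Sca1, had none in any list. The 7 monocyte and macrophage markers had summed ranks of 33.8 to 88.9 in naive PBS, 79.6 to 123.3 in naive LPS, 43.7 to 95.8 in AF9-experienced PBS and 86.6 to 139.5 in AF9-experienced LPS, with Csf1r and Cd14 at 0 in every list. Their summed level moved with LPS, and their part in the results below was not tested. In mixed cells, more cells with a region open and a more open region per cell cannot be told apart. Of 6 dendritic cell markers, 1 had a peak in at least 3 lists, namely Flt3, which is also among the HSPC markers. Xcr1, Zbtb46 and Cd209a stood at 0 in every list. Flt3 alone ranked 74.8 to 93.0 and made up most of each sum. With Flt3 included, the summed ranks were 85.7 to 125.1 after PBS and 74.8 to 84.2 after LPS in naive mice. In AF9-experienced mice they were 86.5 to 93.0 and 83.5 to 88.1. The part of these markers in the Irf8 values was not tested. No T or NK cell marker of 6 had a peak in any list, no B cell marker of 6 reached 3 lists, and 1 of 7 neutrophil and 2 of 4 erythroid markers did.

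Peaks lay at the starts of most members, so the start sequences were read for the letters of elements that answer to interferon, STAT and NF-kB signals. RefSeq (GRCm38.p6) gave 11 start sites for the 8 genes, and all 8 matched. The 250 bases before each start were searched on both strands for the ISRE core GAAANNGAAA, the ETS-IRF core GGAANNGAAA bound by PU.1 with Irf4 or Irf8, the STAT element (GAS) TTCNNNGAA, and the NF-kB core GGGNNNTTCC or GGGNNNNTTCC. Matches stood before Irf1, Irf2 and Irf8 only. The sequence before Irf7 is shown beside them as a start without a match. Capitals mark the matched letters.

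Irf1 (chr11:53769764-53770013, plus strand): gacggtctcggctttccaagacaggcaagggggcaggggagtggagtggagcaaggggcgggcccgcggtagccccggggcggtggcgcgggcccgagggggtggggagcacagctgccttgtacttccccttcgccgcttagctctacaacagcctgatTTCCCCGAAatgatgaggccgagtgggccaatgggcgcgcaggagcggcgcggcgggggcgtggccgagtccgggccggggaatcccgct
Irf2 (chr8:46739495-46739744, plus strand): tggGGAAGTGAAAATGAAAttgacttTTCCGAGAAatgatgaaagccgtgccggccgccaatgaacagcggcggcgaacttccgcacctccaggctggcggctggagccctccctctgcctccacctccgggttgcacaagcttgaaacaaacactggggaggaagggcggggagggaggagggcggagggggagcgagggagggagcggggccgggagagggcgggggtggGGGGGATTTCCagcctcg
Irf8 (chr8:120736108-120736357, plus strand): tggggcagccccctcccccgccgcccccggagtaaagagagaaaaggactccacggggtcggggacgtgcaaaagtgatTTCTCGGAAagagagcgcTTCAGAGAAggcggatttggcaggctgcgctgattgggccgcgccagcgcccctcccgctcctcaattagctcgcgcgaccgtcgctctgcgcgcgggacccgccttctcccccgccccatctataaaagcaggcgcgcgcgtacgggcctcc
Irf7 (chr7:141266425-141266674, minus strand): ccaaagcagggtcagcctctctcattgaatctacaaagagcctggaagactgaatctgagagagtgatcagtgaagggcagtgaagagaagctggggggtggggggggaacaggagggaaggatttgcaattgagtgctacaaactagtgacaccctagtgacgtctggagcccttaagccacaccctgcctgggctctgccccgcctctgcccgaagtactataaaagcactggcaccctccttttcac

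Before Irf1, 1 GAS match, TTCCCCGAA, lay at positions -90 to -82 from the start. Before Irf8, 2 GAS matches lay at -171 to -163 (TTCTCGGAA) and -153 to -145 (TTCAGAGAA). Irf2 held an ETS-IRF match at -247 to -238, an ISRE match at -241 to -232 that overlaps it, a GAS match at -224 to -216, and an NF-kB match at -18 to -8 that fits both spacings. Over all 32851 such windows of the table, 2.98% held the ISRE core, 2.3% the ETS-IRF core, 7.02% a GAS, and 4.65% and 4.19% the NF-kB core with 3 and with 4 bases between. No match was found in these windows before Irf3, Irf4, Irf5, Irf7 or Irf9. A match is a description of letters, not evidence of binding. The lack of a match holds only for the letters given, as variants of these elements with other letters were not searched. Peaks in the full lists covered these windows: a peak touched the Irf1, Irf2 and Irf8 windows in 16 of 16 lists and spanned them whole in 14, 16 and 15. The Irf7 window was touched in 15 lists and spanned in 3, and the Irf5 window was touched in 11 and spanned in 0.

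The members differed widely in how open their starts were. The Irf1 start ranked highest, at 83.3 ± 4.45 (SD, n = 16), and it lay above the Irf3 start (79.6 ± 6.19) in 10 of 16 libraries. Irf3 in turn lay above the Irf9 start (77.0 ± 9.14) in 8 of 16, so these 3 neighbours did not differ beyond their spread. The Irf2 start followed at 67.1 ± 6.46, below Irf9 in 13 of 16 libraries, then the Irf8 start at 59.2 ± 8.16, below Irf2 in 14. Irf4 had 52.6 ± 6.85, below Irf8 in 13 of 16, and Irf7 27.4 ± 16.8, below Irf4 in 15. The Irf5 start held a peak in 1 of 16 equal-length lists, AF9-experienced LPS 1, at a rank of 1.2. For scale, the median of the mean ranks over all 9971 tested regions at a gene end was 66.1 (quartiles 35.3 and 84.2), so Irf1, Irf3, Irf9 and Irf2 stood above it and Irf8, Irf4 and Irf7 below. The start regions of Irf3 and Irf9 are shared with Bcl2l12 and Rnf31, whose gene models they also overlap.

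**Figure D1:**
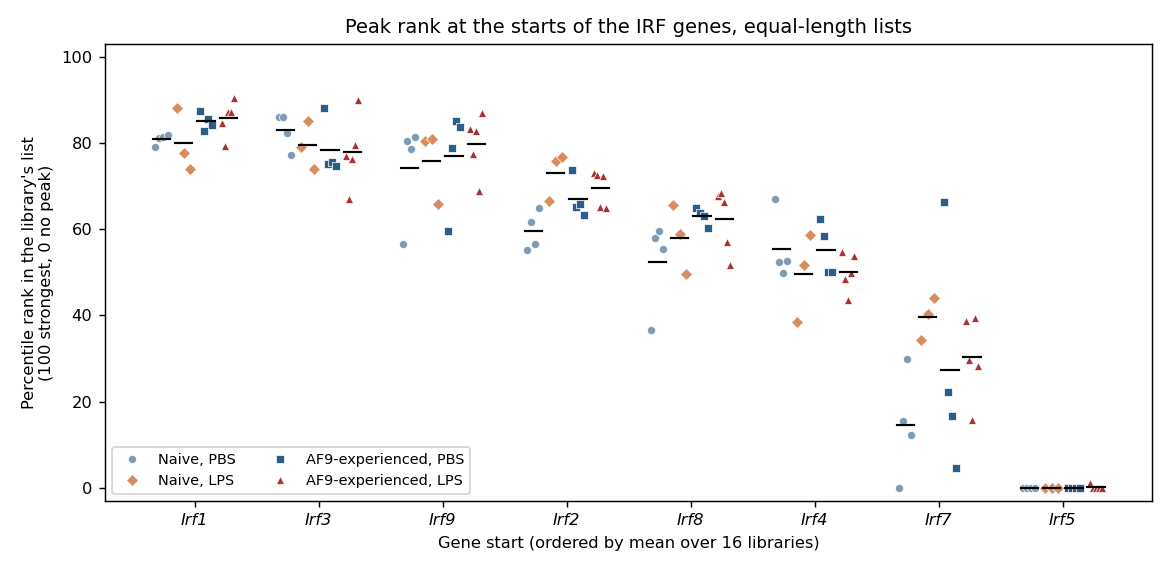
Percentile rank (vertical axis) of the strongest peak at the start of each IRF gene in the 16 equal-length lists, by group; each point is 1 library and black bars are group means. Irf1, Irf3 and Irf9 stand between 56.7 and 90.5, Irf7 spreads from 0 to 66.4, and Irf5 is at or near 0.

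The Irf7, Irf2 and Irf3 start regions had their strongest summit at more than 1 place. At Irf7 the strongest summit lay 1192 bp past the start in 8 of 15 full lists and within 72 bp before it in the other 7. At Irf2 it lay 131 to 160 bp before the start in 13 of 16 lists and 1501 to 1503 bp past it in naive PBS 2, naive PBS 3 and AF9-experienced LPS 4. At Irf3 it lay at -277 or -312 bp from the start in 5 lists, spread over all 4 groups, and at -94 to -25 bp in the other 11. The median was 104 bp before the first start in Irf1, 42 bp before it in Irf4, 68 bp before it in Irf8, and 70 bp past it in Irf9.

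Irf5, the inflammatory cytokine regulator, was open beside its annotated start instead. A region 2.4 kb past the start, inside the gene (chr6:29528384-29529725), held a peak in 16 of 16 equal-length lists, with ranks of 12.9 to 56.7 (mean 41.7 ± 12.5, SD). A second one 9.3 kb upstream (chr6:29517053-29517610) held a peak in 12 lists, at 0.0 to 36.1; it lies 8.5 kb from Irf5 and 9.1 kb from the next gene, Kcp. The start itself was a weaker peak, present in 13 of 16 full lists.

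After LPS, the member that rose in rank in the equal-length lists was Irf2, in 1 region inside the gene, 25.4 kb past its start (chr8:46764656-46765634). Its ranks were 41.9, 37.1, 35.0 and 29.5 in naive PBS and 53.2, 48.8 and 43.2 in naive LPS. In AF9-experienced mice they were 16.1, 37.0, 26.6 and 26.4 after PBS and 37.1, 46.0, 44.4, 65.5 and 57.6 after LPS. Every LPS library lay above every PBS library of its own background, by a narrow margin in both (43.2 against 41.9, and 37.1 against 37.0). Averaged over both backgrounds the difference was 18.08 percentile points (SE 5.23, 95% interval 7.24 to 28.92, adjusted p = 0.025 by limma). It was 23.60 points in AF9-experienced mice (SE 6.9, adjusted p = 0.0485), and the naive difference of 12.56 points missed the threshold (adjusted p = 0.476). The difference between both LPS effects was 11.04 points (adjusted p = 1). Leaving out naive LPS 1, naive LPS 2 or naive PBS 4 ended the averaged call (adjusted p 0.069, 0.0575 and 0.0522), and 13 of 16 such fits ended the AF9-experienced call, with adjusted p up to 0.134 without AF9-experienced LPS 4.

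Of the 20 tested member regions, 1 rose and 0 fell in the averaged LPS comparison, where 12.6% of all 23554 regions were called. In AF9-experienced mice 1 rose and 0 fell, against 5.18% of all regions. In naive mice limma called 0 of 20 members, and 3.22% of all regions were called. An unadjusted p under 0.05 was found for 2 of the 20 and for 15.8% of all regions. The median averaged difference of the 20 members was -0.19 points, beside -0.11 over all regions. The members' counts are close to or below these backgrounds.

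The starts of the sensor-activated factors and of the interferon feedback factors did not pass the test. Irf3, the constitutive partner in interferon induction, differed by -1.90 points (SE 2.97) between LPS and PBS averaged over backgrounds, and Irf9, the ISGF3 subunit, by 2.19 (SE 4.15). Irf1 differed by -0.12 (SE 2.12). Irf2 came nearest, at 8.08 points (SE 3, 95% interval 1.86 to 14.29, adjusted p = 0.0814). In naive mice its mean was 59.6 ± 4.49 (SD, n = 4) after PBS and 73 ± 5.73 (n = 3) after LPS. In AF9-experienced mice it was 67 ± 4.58 (n = 4) and 69.7 ± 4.2 (n = 5). The naive difference of 13.45 points (SE 4.5) had an adjusted p of 0.115 by limma. Thus the gap between PBS and LPS at the Irf2 start was wide in naive mice and narrow in AF9-experienced ones, and the difference between those gaps, -10.75 points (SE 5.99), had an adjusted p of 1.

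Irf7, the interferon-inducible amplifier of type I interferon, had the most variable start. It ranked 0.0, 15.6, 30.0 and 12.3 in naive PBS and 34.4, 40.4 and 44.0 in naive LPS. In AF9-experienced mice it ranked 66.4, 22.2, 16.7 and 4.5 after PBS and 38.8, 29.6, 15.7, 39.5 and 28.2 after LPS. The naive groups did not overlap, while the AF9-experienced PBS libraries enclosed the LPS ones. The highest and the lowest values, 66.4 and 0.0, both came from PBS libraries among the 3 shortest lists. The naive difference was 25.14 points (SE 11.3, adjusted p = 0.273) and the averaged one 14.01 (SE 7.55, adjusted p = 0.245), so a change was not detectable at this spread in the equal-length lists. The myeloid factors Irf8 and Irf4 differed at their starts by 2.46 (SE 4.1) and -5.51 points (SE 4.26), both within replicate spread.

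The long lists reach weaker peaks and showed more distal regions. Of 56 tested member regions, 5 rose and 2 fell after LPS averaged over both backgrounds, that is 12.5%, where 21.9% of all 70017 regions were called. In AF9-experienced mice 4 rose and 0 fell (10.5% of all regions called), and in naive mice 2 rose and 0 fell (6.73%). The median averaged difference was 0.33 points for the members and -0.97 over all regions. All 5 regions that rose are assigned to Irf1 or Irf2, and both that fell to Irf8. These genes also hold most of the 56 tested regions, with 11 for Irf1, 22 for Irf2 and 12 for Irf8.

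The region with the largest rise stood 50.9 kb past the Irf1 start, 42.2 kb beyond the end of the gene (chr11:53820552-53821245). The next gene, Slc22a5, which encodes a carnitine transporter, is 43.3 kb away, so the assignment to Irf1 rests on a margin of about 1 kb. After PBS its ranks were 0, 2.1 and 7.6 in naive and 3.8, 0 and 20.5 in AF9-experienced mice. After LPS they were 69.8 and 66.1 in naive and 62.8, 34.2, 59.6, 58.0 and 63.2 in AF9-experienced mice. Every LPS library lay above every PBS library. The averaged difference was 56.10 points (SE 7.1, 95% interval 41.18 to 71.02, adjusted p = 5.0e-05). It was 64.72 in naive (adjusted p = 0.00366) and 47.47 in AF9-experienced mice (adjusted p = 0.00306), and the difference of -17.25 points between them was within error (SE 14.2, adjusted p = 0.993). The averaged call held in all 13 fits that left out 1 library, with adjusted p up to 0.000892. The 3 short lists, which this fit did not use, were read separately: naive PBS 1 and AF9-experienced PBS 1 held no peak there, and in naive LPS 3 it stood at position 16589 of 38762.

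Inside Irf2, the antagonist of Irf1, 3 regions rose and lay 25.4, 49.8 and 71.7 kb past the start of a gene that spans 107.7 kb. The region at 71.7 kb (chr8:46811264-46811628) had no peak in 5 of 6 PBS long lists and a rank of 12.7 in AF9-experienced PBS 3. The full lists of these 6 PBS libraries held a peak there in 5, so most of these zeros come from the list cut. After LPS it ranked 52.3 and 52.7 in naive and 39.6, 48.2, 39.8, 21.5 and 29.2 in AF9-experienced libraries, all above the PBS values. The averaged difference was 41.95 points (SE 6.72, adjusted p = 0.000352), called in naive (52.48, adjusted p = 0.00862) and in AF9-experienced mice (31.43, adjusted p = 0.0239). Leaving out naive LPS 1 or 2 ended the naive call (adjusted p 0.0586 and 0.0656), and leaving out AF9-experienced PBS 2, 3 or 4 ended the AF9-experienced one (0.111, 0.0578 and 0.116). No such omission ended the averaged call.

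The region at 49.8 kb (chr8:46789170-46789992) was open before treatment and stood higher after it. Its PBS ranks were 40.9, 43.7, 52.3, 57.6, 33.7 and 43.7, and its LPS ranks 60.2, 61.6, 65.2, 66.3, 72.3, 63.3 and 79.4, with no overlap. The averaged difference was 19.78 points (SE 4.83, adjusted p = 0.00745), with 15.27 in naive mice (adjusted p = 0.243) and 24.30 in AF9-experienced mice (adjusted p = 0.0165; 0.113 without AF9-experienced PBS 3 and 0.0684 without AF9-experienced PBS 4). In the equal-length lists the same region differed by -2.05 points (SE 5.99), where it held a peak in 4 of 16 lists. The region at 25.4 kb, called in the equal-length lists, rose here by 5.97 points (SE 1.6, adjusted p = 0.013; 0.059 without naive LPS 1), and by 6.45 in AF9-experienced mice (adjusted p = 0.0476, ended in 11 of 13 fits).

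The remaining region that rose, 38.7 kb beyond the end of Irf2 (chr8:46886174-46886569), passed only narrowly. It had no peak in 5 of 6 PBS long lists and 5.4 in AF9-experienced PBS 2, and after LPS it ranked 20.4, 42.9, 9.0, 0, 0, 0 and 41.8. The full lists held a peak there in 3 of 6 PBS and 4 of 7 LPS libraries. The averaged difference was 19.99 points (SE 6.99, adjusted p = 0.0485), which 8 of 13 fits without 1 library ended, with adjusted p up to 0.215 without naive LPS 2. The PBS and LPS libraries overlapped at 0.

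**Figure D2:**
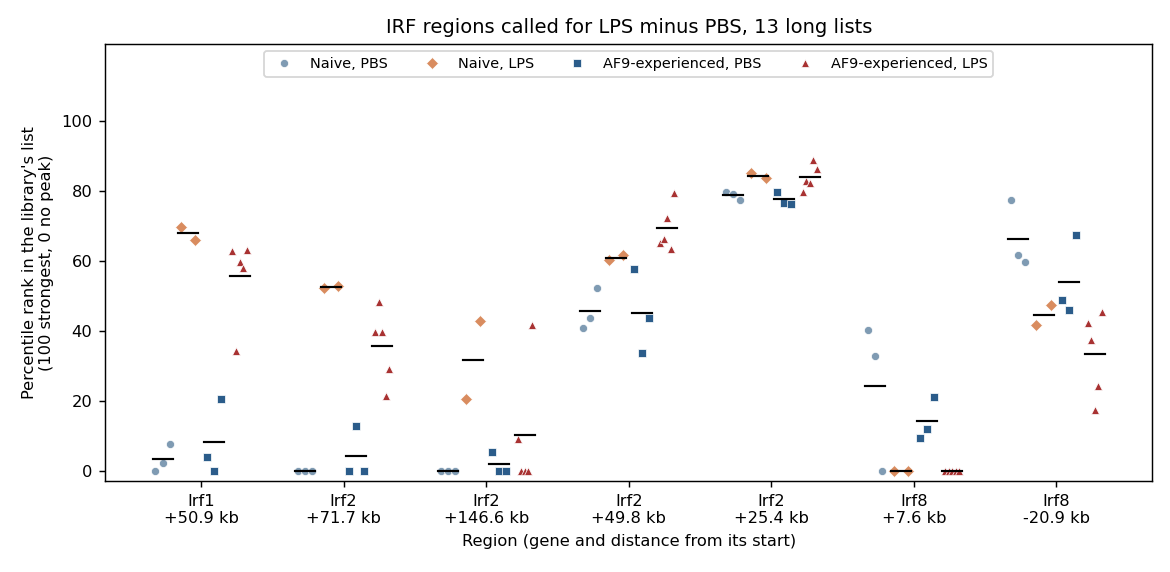
Percentile rank (vertical axis) after PBS and after LPS of the member regions called for LPS in the long lists; each point is 1 of 13 libraries, and bars are means. The Irf1 +50.9 kb and Irf2 +71.7 kb regions lie at 0 to 20.5 after PBS and at 21.5 to 69.8 after LPS, and both Irf8 regions lie lower after LPS.

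Irf8, the monocyte and dendritic cell factor, lost rank at 2 distal regions. The one 20.9 kb upstream (chr8:120715131-120715735) ranked 77.3, 61.8, 59.8, 48.9, 45.9 and 67.5 after PBS and 41.8, 47.3, 42.2, 37.4, 17.3, 24.3 and 45.3 after LPS. A single pair of values overlapped, 47.3 against 45.9. The averaged difference was -21.28 points (SE 6.52, adjusted p = 0.0262). The one inside the gene, 7.6 kb past the start (chr8:120743600-120744293), ranked 40.2, 32.8, 0, 9.5, 12.0 and 21.1 after PBS and held no peak in any of 7 LPS long lists (-19.27 points, SE 6.07, adjusted p = 0.03). Both calls were fragile. Leaving out 1 library ended the first in 4 of 13 fits (0.091 without naive LPS 1, 0.0862 without AF9-experienced PBS 4, 0.0739 without naive PBS 2, 0.0607 without naive LPS 2). It ended the second in 5 of 13, with adjusted p up to 0.0906 without naive LPS 2. Neither region was called within naive or within AF9-experienced mice alone.

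Among the 13 long-list libraries the Irf7 and Irf2 starts again came near the threshold, with averaged differences of 5.44 points (SE 1.99, adjusted p = 0.0581) and 2.41 points (SE 0.904, adjusted p = 0.0639). The other 10 tested Irf8 regions did not pass, and they held ranks on both sides. The Irf8 start was at 84.6 to 89.9 in the 13 long lists and differed by 0.71 points (SE 1.07). A region 60.1 kb past the start, which had the highest mean rank among the tested distal Irf8 regions of the equal-length lists but a peak in only 4 of 16, differed by -1.47 points there (SE 3.26). At Irf1 the strongest distal region, 6.4 kb upstream, had a mean rank of 82.1 ± 7.08 (SD, n = 16), as high as the start, and differed by -2.38 points (SE 3.11). At Irf2 the strongest was 129.9 kb past the start, with 54.5 ± 9.3, and differed by -2.45 (SE 4.72). Ranked by p, none of these 3 distal regions was called in either set of lists.

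**Figure D3:**
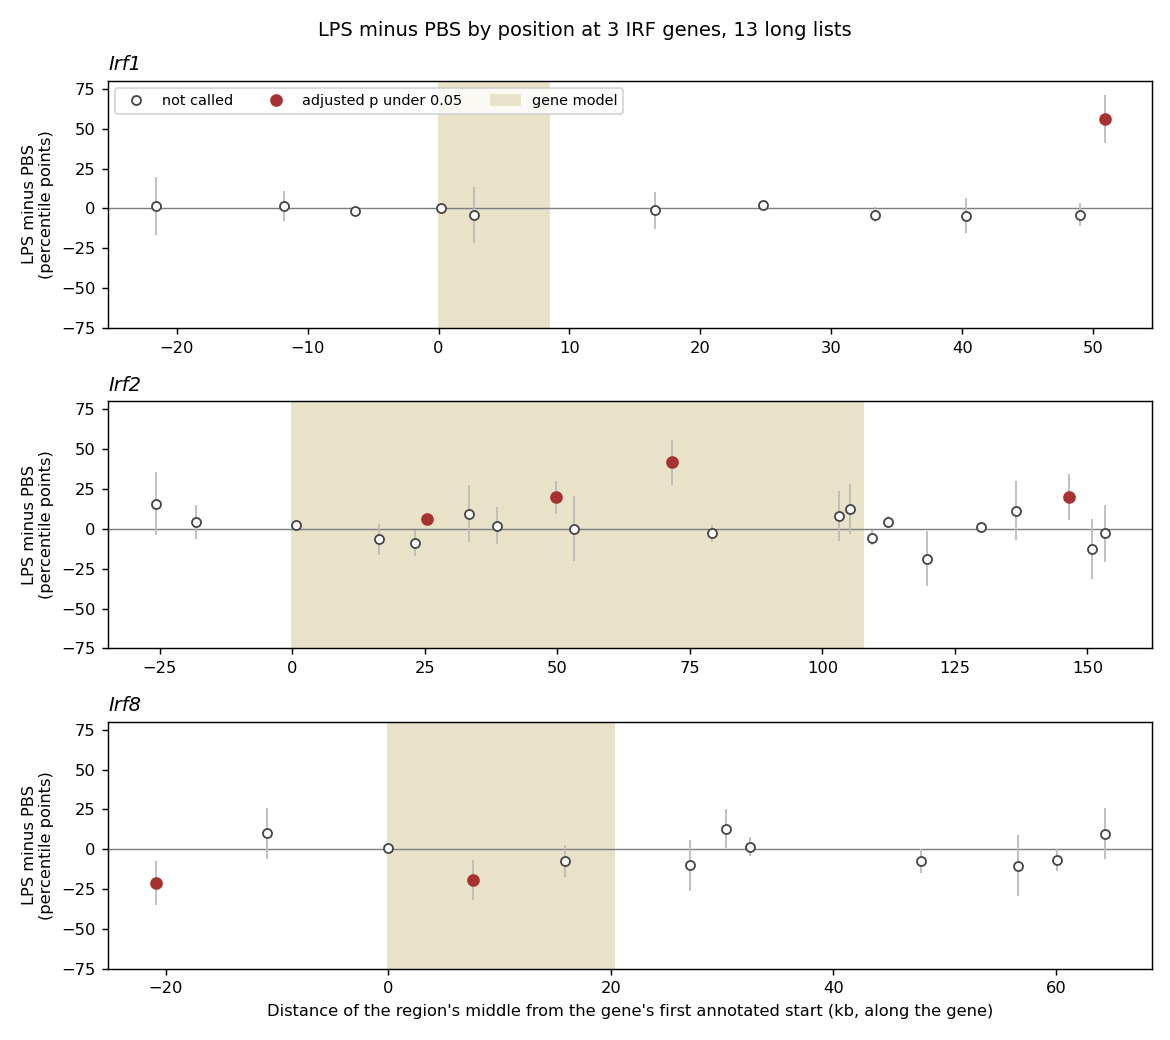
Positions of the tested long-list regions of Irf1, Irf2 and Irf8, as distance from the first start in kb (horizontal axis), against the LPS minus PBS difference in percentile points averaged over both backgrounds (vertical axis); filled symbols passed the test and bars are 95% intervals. The called Irf2 regions fall inside and beyond the gene, and Irf1 +50.9 kb stands apart at 56.10 points.

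The authors' raw fold enrichment overlapped between treatments at the Irf1 and Irf2 regions. At Irf2 +25.4 kb it was 11.9 to 15.2 after PBS and 8.82 to 13.5 after LPS, and -log10 p was 89.8 to 217 and 36.9 to 77.7, so the raw values were lower after LPS while the rank was higher. At Irf1 +50.9 kb it was 4.64 to 7.79 in the 5 of 6 PBS full lists with a peak and 4.81 to 9.11 in 7 of 7 LPS lists. At Irf2 +71.7 kb it was 5.37 to 8.52 after PBS and 3.9 to 8.32 after LPS. Heights relative to the library's median fold were set beside these raw values. The medians themselves did not overlap between treatments, so dividing by them can separate like raw folds. The ratios therefore cannot tell a change at a region from library contrast. Divided by the library's median fold, Irf1 +50.9 kb stood at 0.41 to 0.67 after PBS and 0.79 to 1.32 after LPS, and Irf2 +71.7 kb at 0.43 to 0.75 and 0.84 to 1.21. At Irf2 +49.8 kb the raw folds were 6.91 to 11.8 and 5.59 to 8.95, and relative to the median 0.72 to 0.90 and 0.99 to 1.53. Irf8 -20.9 kb was lower after LPS, at 11 to 16.1 and 3.59 to 7.75 raw, and at 0.96 to 1.69 and 0.74 to 1.03 relative to the median, where the ranges overlap. Irf8 +7.6 kb had a raw fold of 4.44 to 8.47 in 6 PBS lists and 3.31 in the 1 LPS full list with a peak, and relative to the median that value, 0.54, lay inside the PBS range of 0.43 to 0.82.

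With the library's median fold as a further term in the long lists, limma called 0 of 70017 regions for LPS averaged over both backgrounds, and 0 of 56 members. For naive mice it called 903 regions, again with 0 members. The averaged difference was then 56.62 points for Irf1 +50.9 kb (adjusted p = 0.136) and 47.36 for Irf2 +71.7 kb (adjusted p = 0.168), and neither was called. Because the medians did not overlap between treatments, this fit cannot tell treatment from library contrast. No conclusion is drawn from the size of these differences. Ranking by fold in place of p gave gene ends a median difference of 6.08 points in the equal-length lists and 2.91 in the long lists, and other regions one of -3.19 and -1.93. Among gene ends 20.6% and 31.7% were then called higher and 3.43% and 11.2% lower. The Irf1 start then differed by 34.63 points (adjusted p = 0.0424) in the equal-length lists and by 19.99 in the long lists, and the Irf2 and Irf7 starts by 31.44 and 28.56 in the long lists (adjusted p = 6.6e-05 and 0.00188). The Irf4, Irf8 and Irf9 starts differed there by -2.06, -3.60 and -2.73 points and were not called. Irf1 -6.4 kb differed by 12.12 (adjusted p = 0.00069). Of the long-list members ranked by fold, 15 of 54 members rose and 5 fell, where 36.1% of all regions were called. The 7 regions called by p are among these 20, in the same direction each time. The split by gene seen with p did not hold here. Irf8 +30.3 kb rose by 20.24 points (adjusted p = 0.0179 by limma). Irf2 +119.8 kb and Irf5 +10.2 kb fell, with differences of -24.22 and -33.64 points (adjusted p = 0.0331 and 0.00174).

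The LPS effect was set beside itself in both backgrounds, to ask whether earlier leukaemia altered the response of these genes. Of the 20 members in the equal-length lists, limma called 0 for the difference between both LPS effects, with 0 at an unadjusted p under 0.05, and 0% of all regions were called. In the long lists it called 0 of 56, again with 0% of all regions, and 1 had an unadjusted p under 0.05, as had 3.94% of all regions. That region, 15.9 kb past the Irf8 start, stood at 74.4, 65.8 and 62.2 in naive PBS and 35.8 and 60.6 in naive LPS, against 50.8, 62.7 and 60.2 and then 61.4, 57.6, 57.1, 73.9 and 61.1 in the AF9-experienced groups. The difference was 23.55 points (95% interval 3.43 to 43.66, adjusted p = 0.993). At Irf1 +50.9 kb the 95% interval of the difference ran from -47.09 to 12.59 points, so a wide range of differences between both effects remains possible.

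**Figure D4:**
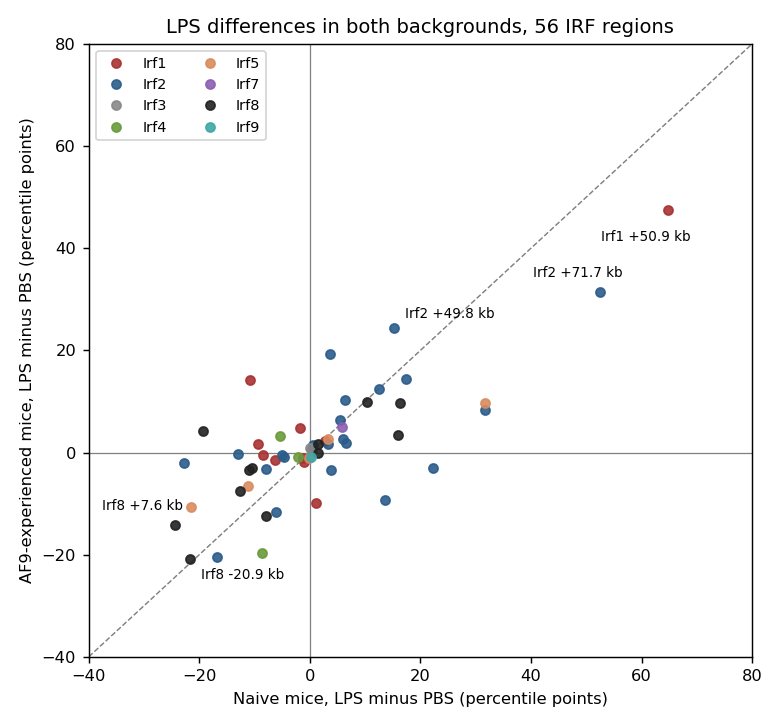
LPS minus PBS difference in naive mice (horizontal axis) against that in AF9-experienced mice (vertical axis), in percentile points, for the tested member regions of the long lists; colours mark the gene and the dashed line marks equal differences. Irf1 +50.9 kb lies at 64.72 and 47.47, and Irf2 +71.7 kb at 52.48 and 31.43.

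AF9-experienced and naive HSPCs were also compared directly, within each treatment. After PBS limma called 0 of 20 members in the equal-length lists and 0 of 56 in the long lists, with 0 at an unadjusted p under 0.05 in each, and 0% of all regions were called in both. After LPS it called 0 of 20 (0.0127% of all regions called, 0 members at an unadjusted p under 0.05) and 0 of 56 (0.0129%, and 2 members, where 6.13% of all regions had such a p). In the equal-length lists the Irf8 start had the smallest p after PBS. It ranked 36.6, 57.9, 59.7 and 55.4 in naive and 64.9, 63.7, 63.1 and 60.3 in AF9-experienced libraries, which do not overlap. The difference was 10.62 points (95% interval -1.21 to 22.44, adjusted p = 1), and the lowest naive value came from the shortest list. In the long lists, without that library, the Irf8 start ranked 85.7 to 87.1 in naive PBS and 87.3 to 88.4 in AF9-experienced PBS.

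The intervals of the other starts after PBS ran from -1.24 to 16.04 points for Irf2, from -1.91 to 10.32 for Irf1, from -13.14 to 4.01 for Irf3, and from -8.79 to 34.76 for Irf7. Each of these 4 intervals contains a difference of 10 points in at least 1 direction. After LPS the Irf1 start differed by 5.86 points (95% interval -0.46 to 12.18, adjusted p = 0.944) and the Irf7 start by -9.27 (-31.76 to 13.22, adjusted p = 1). The 2 long-list regions with an unadjusted p under 0.05 after LPS were Irf2 +109.3 kb, which differed by 8.38 points (adjusted p = 0.695), and the Irf2 +146.6 kb region described above, at -21.48 (adjusted p = 0.809).

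**Figure D5:**
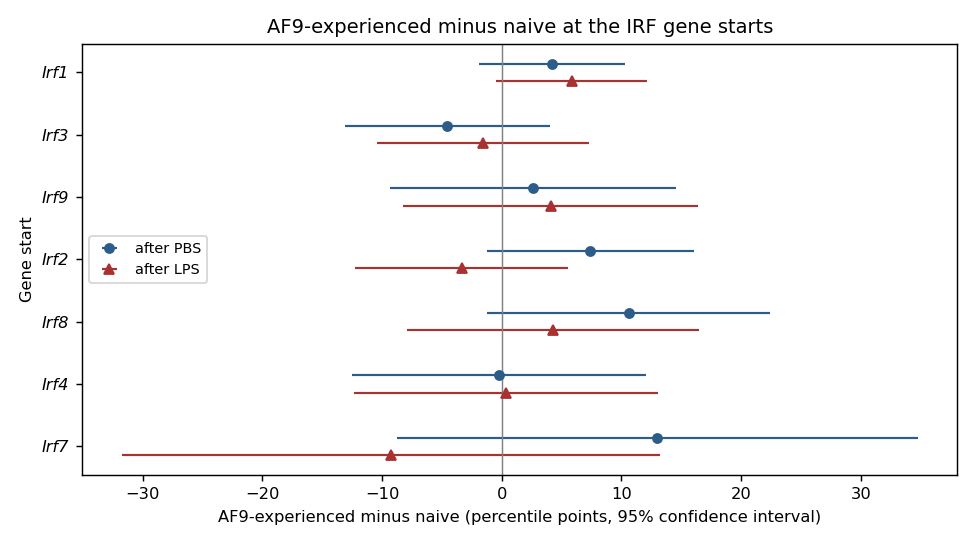
AF9-experienced minus naive difference in percentile points (horizontal axis), after PBS and after LPS, at the 7 tested IRF starts in the equal-length lists; points are estimates and bars 95% intervals. Every interval spans 0, and the interval of Irf7 is the widest in both treatments.

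Genes that act with the IRFs were counted by their linked regions in the same equal-length fit, for LPS averaged over both backgrounds. Of 20 upstream sensors and adaptors 16 were measured, 0 had a region that rose and 2 had one that fell. Tlr9, the endosomal DNA receptor, ranked at a median of 44.8 after PBS and 15.9 after LPS at its gene end (-30.47 points, SE 7.29, adjusted p = 0.00735). Sting1, the cyclic dinucleotide sensor upstream of Irf3, fell by 18.61 points (adjusted p = 0.0361). Its difference was -31.61 points in AF9-experienced mice (adjusted p = 0.0168 by limma), and it was not called in naive mice. In the long lists Sting1 was called in AF9-experienced mice only (-8.79 points, adjusted p = 0.0239 by limma). The kinases that phosphorylate Irf3 and Irf7 were not called in the equal-length lists. A region inside Ikbke, the gene of one of them, rose by 44.60 points in the long lists (adjusted p = 0.000332). In the equal-length lists the median difference of the list was 0.64 points, beside -0.11 over all regions. By region, 0 rose and 2 fell of 24 there, where 12.6% of all regions were called.

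Of the 10 interferon receptor and JAK-STAT genes, 2 had a region that rose, with a median difference of 0.15 points over the list. These were 2 of 28 tested regions, where 1690 of all 23554 regions rose. A region inside Jak2, a kinase of the interferon-gamma receptor, ranked at a median of 5.6 after PBS and 45.6 after LPS (33.15 points, SE 6.04, adjusted p = 0.000808). In the long lists it ranked 64.5 to 73.9 after PBS and 77.9 to 85.1 after LPS. A region 19.4 kb from Ifnar2, a chain of the type I interferon receptor, had no peak in 8 PBS lists and a median of 30.6 after LPS (28.10 points, adjusted p = 0.00239). In the long lists the Ifnar2 region held a peak in 5 of 6 PBS libraries, at ranks up to 57.4 (median 17.5). After LPS it ranked 65.9 to 83.1 there (55.35 points). The strongest called long-list region rose for 5 of these genes and fell for 3, among them Tyk2 (42.97 points) and Jak1 (-52.42). By region, 7 rose and 6 fell of 77 there, where 21.9% of all regions were called.

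Of 15 measured partners and restraints of the IRFs, 4 had a strongest called region that rose and 2 one that fell, with a median of 1.64 points. Counted by region, 6 rose and 2 fell of 42, where 12.6% of all regions were called. Batf3, an AP-1 partner of Irf4 and Irf8, had a region 23.6 kb away that stood at a median of 0.0 after PBS and 38.6 after LPS (37.61 points, SE 5.61, adjusted p = 0.000101). In the long lists it was open in both, at 55.4 to 68.3 after PBS and 74.4 to 84.3 after LPS (17.88 points). The Irf2-binding corepressor genes Irf2bp2 and Irf2bpl had regions at 36.8 and 45.9 kb that rose by 29.72 and 28.43 points (adjusted p = 0.00205 and 0.00309). Another region, 4.2 kb from Irf2bp2, had no peak in 6 PBS long lists and ranked 59.7 to 70.4 in 7 LPS long lists (65.12 points, adjusted p = 3.8e-06). A region 5.7 kb from Socs3, the cytokine signalling brake, fell by 24.56 points (adjusted p = 0.00283). It also fell in the long lists in AF9-experienced mice (-20.41, adjusted p = 0.00648). Regions at the Socs3 gene ends moved both ways in the long lists. One overlapping the gene rose by 4.55 averaged over both backgrounds (adjusted p = 0.000531). Another, 0.1 kb from the gene, fell in naive mice (-49.15, adjusted p = 0.0101).

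Of 26 interferon response targets 15 were measured, 2 had a region that rose and 1 had one that fell, with a median of 2.19 points. By region, 2 rose and 1 fell of 22, where 12.6% of all regions were called. The gene end of Cxcl10, a chemokine gene induced through Irf3 and NF-kB, stood at a median of 0.0 after PBS and 44.0 after LPS (adjusted p = 2.2e-05). In the long lists it was open in both, at 58.5 to 73.9 after PBS and 77.2 to 88.6 after LPS (16.70 points). A region 3.2 kb from Igtp, an interferon-gamma-induced GTPase gene, rose by 19.93 points (adjusted p = 0.0315), and one 18.2 kb from Ifitm3 fell by 19.70 (adjusted p = 0.00532). In the long lists, by contrast, Ifitm3 was among the genes whose strongest called region rose. Counted by region in the long lists, 5 rose and 4 fell of 64 for sensors and adaptors, 18 and 8 of 107 for partners and restraints, and 8 and 4 of 77 for targets, where 21.9% of all regions were called. No gene of these 4 lists was called between AF9-experienced and naive mice, after PBS or LPS, in either set of lists. The 4 lists were drawn up with earlier results of these data known, and the regions are assigned by nearness.

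The gene ends whose ranks followed Irf2 +25.4 kb most closely over the 16 libraries were those of Rnf135 (Pearson r = 0.90), Trp53i13 with Abhd15 (0.90), Micos10 (0.88), Pdss1 (0.85) and Lpxn (0.84). For Irf2 +109.3 kb, the member with the smallest p among those lower after LPS (-6.95 points, adjusted p = 0.421; 18.43, adjusted p = 0.0287, in the long lists ranked by fold), they were Rhbdd2 (0.82), Fam131a (0.81), Ythdf1 (0.80), Dhx16 (0.79) and H2-Oa (0.77). Irf1 +50.9 kb, singled out after its values were seen, was followed over the 13 long-list libraries by Acsbg3, Cd244a and Nfkbia (0.96 each) and by Zbtb20 and Lilr4b (0.95 each). These correlations are descriptions, picked as the highest over all tested gene ends, and all points share the treatment and the contrast of their libraries.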

How the data were processed

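Deposited peak lists of 16 biological replicates were used, 1 list each, placed by name. An OMNI-ATAC protocol and a Chromium chemistry both appear in the labels, and which one made these libraries is not given. How the 2 technical libraries of a replicate were combined is not stated. Build GRCm38 and, with no version or order, BWA, MACS3, Picard, FastQC and Trim Galore are named per the submitters' processing notes. Per the file format, the authors' values are a fold enrichment (a ratio to local background), a -log10 p and a -log10 q, the lowest -log10 q in a list being 1.30 to 1.33. They are the peak's own values and served to rank peaks within a list. Peak lists do not give the read depth.

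Autosomal peaks were merged over libraries and linked to the nearest of 21887 protein-coding gene models within 50 kb. Ranks were fitted with limma 3.58.1 (R 4.3.3; trend, robust, a mean per group), and the averaged LPS effect weighs both backgrounds equally. P-values measure only the spread between samples labelled as biological replicates. A start region lies within 1 kb of an annotated start. Exon and intron were not assigned. Members and gene lists were chosen with earlier results of these data known. Named for each gene were its start region, every called region, the region of smallest LPS p and the strongest distal region, and up to 4 called genes per pathway list. A called gene of the receptor and JAK-STAT list is not reported here. The long lists were set beside the equal-length lists from the outset; further settings on them and the likeness of Irf1 +50.9 kb were chosen after seeing the data. Alternatives varied list length, ranking, filter, link distance (20 kb), presence in place of rank, covariates, replicate block and single libraries.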

Additional observations from a re-analysis of the deposited data

Results flagged for a closer look

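Of 31 groups of 4 or 5 libraries examined for a library far from the rest (Dixon's test at 95%, which marks about 1 in 20 groups by chance), 5 had one. At the Irf3 start, AF9-experienced PBS 1 ranked 88.2 while the other 3 libraries lay at 74.6 to 75.5. At the Irf4 start, naive PBS 1 ranked 67.1 and the others 49.9 to 52.6, and at the Irf9 start it ranked 56.7 and the others 78.7 to 81.4. Those 3 values come from the shortest lists. In the long lists, AF9-experienced LPS 2 stood at 34.2 at Irf1 +50.9 kb, below 58.0 to 63.2 in the other 4 libraries. AF9-experienced LPS 5 stood at 41.8 at Irf2 +146.6 kb, above 0.0 to 9.0 in the others, and that region's call was among the least stable.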

How the results depend on the processing

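Counts of called members depended on the list length and on the ranking. In the equal-length lists the averaged LPS count of 1 became 0 with the 9550 strongest peaks kept, with presence of a peak at -log10 q of at least 5 or in the full lists in place of rank, and with a replicate block. It became 2 with the median fold as covariate, 3 ranked by fold, and 7 without the 3 shortest lists, and was 0 to 3 when 1 library was left out. The AF9-experienced count of 1 became 0 in a fit of those groups alone, with the 9550 strongest peaks, with either form of presence, and with the replicate block, and 4 without the 3 shortest lists (0 to 1 leaving out 1 library). The naive count of 0 became 2 without the 3 shortest lists. In the long lists the naive, AF9-experienced and averaged counts became 0, 0 and 0 with the median fold as covariate, 9, 15 and 20 ranked by fold, and 1, 2 and 4 with the replicate block. Leaving out 1 library gave 1 to 3, 1 to 4 and 4 to 9. Replicate numbers did not pair the samples (correlations of -0.22 to 0.23), so the block is given here only. Uncalled starts changed sign for LPS averaged over backgrounds. The Irf1 start (-0.12) became 2.31 with the Y peak count as covariate, 0.12 with median fold, 34.63 ranked by fold, 0.48 without the 3 shortest lists, and -2.20 to 1.38 when 1 library was left out. The Irf3 start (-1.90) became 2.03, 4.43 and 0.52 with the Y covariate, ranked by fold and without the 3 shortest lists. The Irf8 start (2.46) became -3.24 with the Y covariate, -5.69 ranked by fold, and -0.18 (without naive PBS 1) to 4.54 when 1 library was left out. The Irf9 start (2.19) became -3.55 ranked by fold, -0.36 without the 3 shortest lists, -0.68 without AF9-experienced PBS 1, and -0.74 (without naive PBS 1) to 4.67 over the fits without 1 library. The cause of these moves was not tested. Full lists held on average 11 peaks for Irf1 and 21.2 for Irf2, against 4.19 and 6.81 among the 19100 strongest, so weak regions lie beyond the reach of the equal-length lists.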
